A study of Mus musculus with 12 samples.

Results

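The BCL2 family was described here through 10 genes, taken from the deposited expression table by their gene symbols, of the 55335 genes listed there. They were 6 anti-apoptotic genes (Mcl1, Bcl2a1a, Bcl2a1b, Bcl2a1d, Bcl2l1 and Bcl2), the effectors Bax and Bak1, and the BH3-only genes Bcl2l11 and Pmaip1. All 10 passed the filter on low values, an FPKM, an expression level per transcript length, of at least 1 in at least 3 of 12 libraries, which 12622 genes passed.

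The study sequenced RNA of BMDMs (bone marrow-derived macrophages), the macrophages that mouse marrow yields in culture with macrophage colony-stimulating factor, to ask how the NLRP3 inflammasome acts in them. The 12 libraries fell into 4 groups of 3, with wild-type and Nlrp3-/- cells each in a control state and in an LPS+ATP state. Wild-type mice were C57BL/6, Nlrp3-/- mice were knockout mice from a commercial supplier, and the methods give an age of 8 weeks for the C57BL/6 mice whose marrow was cultured. Control cells were left untreated. The others received lipopolysaccharide (LPS), a bacterial wall component that primes the inflammasome, and then ATP, which triggers it through the receptor P2X7. The labels give 4 hours of LPS and 30 minutes of ATP, while the methods give 12 hours and 2 hours. Nothing in the labels says that the 3 replicates of a group came from separate animals or cultures, so the p-values measure the spread between these libraries, which may be technical.

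Proteins of this family decide whether the outer membrane of the mitochondrion is opened to release cytochrome c, the step that commits a cell to intrinsic apoptosis. The effectors BAX and BAK form the pores, the anti-apoptotic proteins hold them in check, and the BH3-only proteins, released or made under stress, occupy the anti-apoptotic proteins or engage the effectors. In myeloid cells MCL1 is a short-lived survival protein, and the Bcl2a1 genes, which encode A1, are known targets of NF-κB downstream of Toll-like receptors. The mouse carries several close copies of Bcl2a1.

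Expression was given as FPKM, fragments scaled to the length of the gene and to the mapped fragments of the library, so that levels of different genes can be compared per length. Groups were compared with limma on log2(FPKM + 1), with p-values adjusted by the Benjamini-Hochberg method over all 12622 genes. A gene passed the test at an adjusted p under 0.05, and it was a differentially expressed gene (DEG) where its log2 fold change was also at least 1 in either direction. On this scale, changes of weakly expressed genes come out too small.

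Nlrp3 was between 9.24 and 33.6 FPKM in the 6 wild-type libraries and was listed at 0 in all 6 Nlrp3-/- libraries. All 8 macrophage markers passed the filter, with summed means of 20691 FPKM in wild-type control, 11752 in wild-type LPS+ATP, 19168 in Nlrp3-/- control and 11162 in Nlrp3-/- LPS+ATP. Lyz2 made up most of each sum, being 17722 to 18839 FPKM in wild-type control and 9451 to 9500 FPKM in wild-type LPS+ATP libraries. In Nlrp3-/- BMDMs it was 17533 to 17785 and 9212 to 9442 FPKM. As DEGs with LPS+ATP, 2 of the 8 markers, Cd14 and Fcgr1, rose and 0 fell in each genotype. Of all tested genes 8.25% rose and 11.2% fell as DEGs in wild-type, and 6.64% and 8.21% in Nlrp3-/- BMDMs. By adjusted p alone, Lyz2 (log2 fold change -0.96 in wild-type, -0.93 in Nlrp3-/- BMDMs) and Cd68 (-0.83, -0.50) fell. Mertk also fell (-0.75, -0.99), and Adgre1 rose (0.96, 0.82). Csf1r was -0.51 and 0.10. Cd68 was lower in Nlrp3-/- than in wild-type BMDMs, by -0.73 in control and -0.39 with LPS+ATP. So were Fcgr1 (-0.40, -0.71) and Adgre1 (-0.36, -0.49), and Csf1r in control (-0.62). Lyz2 did not pass between the genotypes. The genotypes also differed in the sex of the donor mice as their RNA shows it. Xist, which is made by the inactive X chromosome, was at least 32.8 FPKM in every Nlrp3-/- library and at most 0.0416 FPKM in every wild-type library, and the Y-linked Uty, Kdm5d, Eif2s3y and Ddx3y had a value of 0 in each Nlrp3-/- library. Genotype and sex therefore cannot be told apart in any comparison between the genotypes.

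The 3 Bcl2a1 genes include those with the largest fold changes of the family and are hard to separate by short reads, so the start of each coding sequence is shown. The lines give coding bases 1 to 90, from the GENCODE release M21 transcripts, with capitals at the positions where the 3 copies are not all the same.
Bcl2a1a: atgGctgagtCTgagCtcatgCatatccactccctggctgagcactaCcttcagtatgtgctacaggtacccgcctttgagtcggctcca
Bcl2a1b: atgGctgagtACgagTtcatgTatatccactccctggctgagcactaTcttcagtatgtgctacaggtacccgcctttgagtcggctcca
Bcl2a1d: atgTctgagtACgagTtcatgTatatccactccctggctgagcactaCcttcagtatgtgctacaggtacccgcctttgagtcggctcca
Over the 516 coding bases, 12 positions differed among the copies, 6 of them within this stretch. Bcl2a1a and Bcl2a1b differed at 11 bases (97.9% identity), Bcl2a1a and Bcl2a1d at 7 (98.6%), and Bcl2a1b and Bcl2a1d at 6 (98.8%). Of all windows of 100 bases in the transcript, 43.5% in Bcl2a1a, 31.1% in Bcl2a1b and 54.7% in Bcl2a1d were found unchanged in another copy. How reads that match several copies were assigned is not given in the sources used here, so the split between the copies is uncertain, and the sum of the 3 is given beside each of them.

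The promoter windows of the same genes are shown because they rose together with LPS+ATP, and 1 window of Bcl2l11 because it fell. RefSeq promoter windows, from 250 bases before to 50 bases after a gene's start on GRCm38.p6, were matched for 9 of the 10 genes, with 12 windows in all. They were searched on both strands for AP-1 (TGANTCA), the core of the cAMP response element (TGACG), the ETS core (GGAAGTG), a forkhead site (GTAAACA) and the κB motif by its usual consensus. Capitals mark the matches.
Bcl2a1a, chr9:88956670-88956969, plus strand: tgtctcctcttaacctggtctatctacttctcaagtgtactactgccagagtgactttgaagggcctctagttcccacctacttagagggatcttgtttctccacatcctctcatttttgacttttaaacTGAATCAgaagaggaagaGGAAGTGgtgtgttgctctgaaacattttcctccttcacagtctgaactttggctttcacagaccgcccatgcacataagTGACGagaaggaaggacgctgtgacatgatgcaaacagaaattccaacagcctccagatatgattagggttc
Bcl2a1b, chr9:89199023-89199322, plus strand: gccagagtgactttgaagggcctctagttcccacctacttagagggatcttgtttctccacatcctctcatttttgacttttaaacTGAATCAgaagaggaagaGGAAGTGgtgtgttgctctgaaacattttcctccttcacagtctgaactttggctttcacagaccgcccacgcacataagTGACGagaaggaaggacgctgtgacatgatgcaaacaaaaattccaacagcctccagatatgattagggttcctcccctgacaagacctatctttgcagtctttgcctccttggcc
Bcl2a1d, chr9:88731801-88732100, minus strand: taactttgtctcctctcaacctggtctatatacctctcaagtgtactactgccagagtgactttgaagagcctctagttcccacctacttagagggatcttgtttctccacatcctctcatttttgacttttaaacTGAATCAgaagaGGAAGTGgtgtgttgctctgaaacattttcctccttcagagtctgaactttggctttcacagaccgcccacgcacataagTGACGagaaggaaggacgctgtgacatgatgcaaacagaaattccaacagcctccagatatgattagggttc
Bcl2l11, chr2:128125788-128126087, plus strand: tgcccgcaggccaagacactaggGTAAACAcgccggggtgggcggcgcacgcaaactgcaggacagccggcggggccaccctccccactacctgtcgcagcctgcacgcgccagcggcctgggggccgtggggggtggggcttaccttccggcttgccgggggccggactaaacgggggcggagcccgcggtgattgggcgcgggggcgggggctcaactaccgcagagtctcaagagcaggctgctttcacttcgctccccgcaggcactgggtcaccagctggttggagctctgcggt
Each Bcl2a1 window held the same 3 motifs in the same order. The AP-1 letters began 120, 164 and 114 bases before the start in Bcl2a1a, Bcl2a1b and Bcl2a1d, the ETS letters 102, 146 and 102 bases before it, and the TGACG letters 22, 66 and 22 bases before it. The windows were about as alike as the coding sequences, with 99.2% identity over 256 aligned bases of Bcl2a1a and Bcl2a1b, 98.0% over 294 bases of Bcl2a1a and Bcl2a1d, and 98.8% over 250 bases of Bcl2a1b and Bcl2a1d. The forkhead letters of Bcl2l11 began 227 bases before the start in the window shown, and its other window, chr2:128127325-128127624, held none of the 5 motifs. Among all 32851 RefSeq windows, 7.81% held AP-1, 11.0% the ETS core, 20.8% TGACG, 3.65% the forkhead letters and 8.46% the κB motif. The κB letters were not in the Bcl2a1 windows, which says nothing about sites elsewhere. Among the windows not shown, those of Bcl2 and Mcl1 held the TGACG letters. A window of Bcl2l1 held the κB letters and another of its windows the ETS core, while the windows of Bax and Bak1 held none of the 5 motifs.

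In wild-type BMDMs, LPS+ATP raised the 3 Bcl2a1 genes and lowered Bcl2l11 past the DEG criteria, so 4 of the 10 genes were DEGs. Of all tested genes 19.4% were DEGs, 8.25% higher and 11.2% lower. The count was again 4 of 10, with 3 higher and 1 lower, in Nlrp3-/- BMDMs, where 14.8% of all tested genes were DEGs, 6.64% higher and 8.21% lower. Without the fold limit, 7 of the 10 passed in wild-type BMDMs, 5 with higher and 2 with lower values, where 76.4% of all tested genes passed (23.3% higher, 53.1% lower). The number that passed in Nlrp3-/- BMDMs was 5, with 3 above and 2 below control, where 74.3% of all tested genes passed (20.6% higher, 53.8% lower). The 2 groups of libraries did not overlap for 7 and 6 of the 10 genes, against 78.1% and 77.4% of all tested genes. The 3 near copies are not independent entries in these counts. These are bulk libraries, in which a change in the number of cells of a kind and a change in RNA per cell cannot be told apart.

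**Figure D1:**
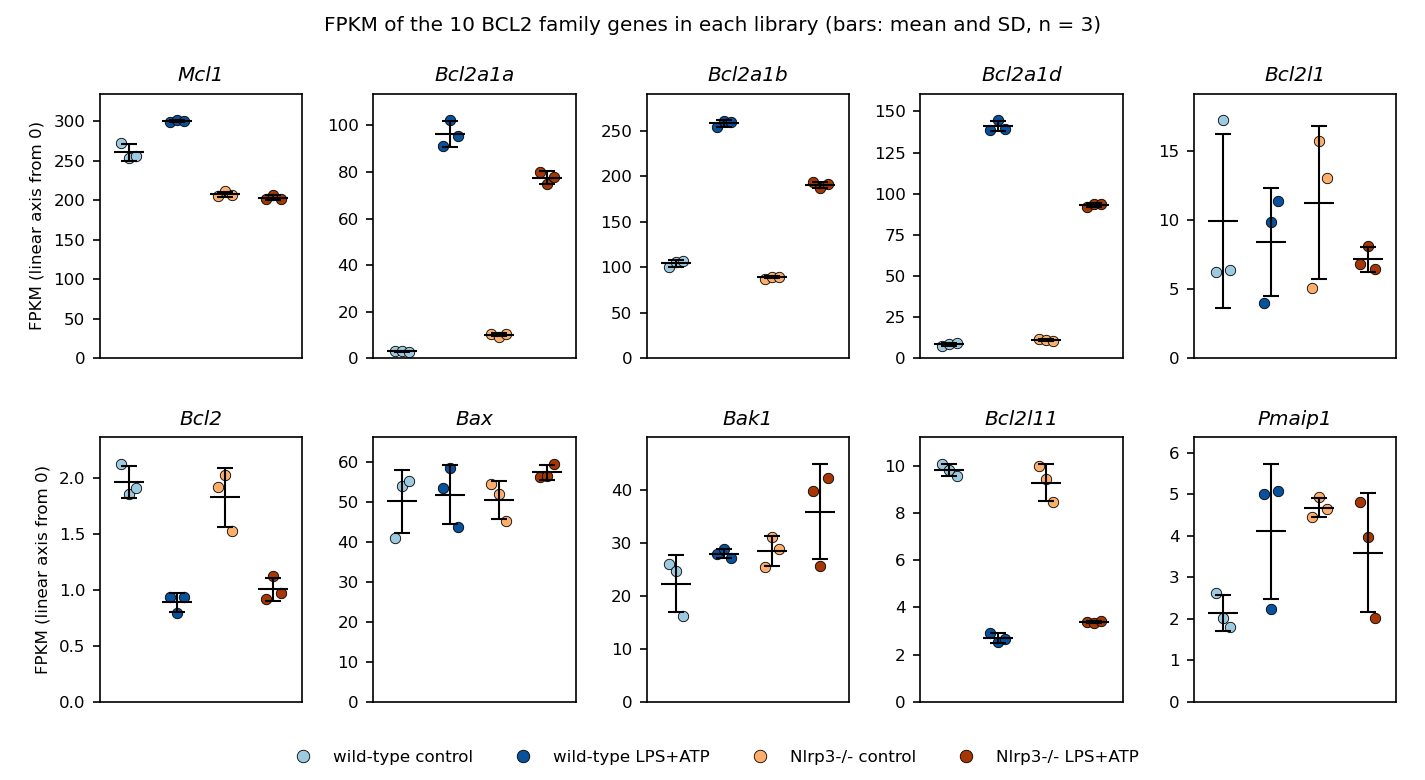
FPKM of each of the 10 genes (linear axis from 0, separate for each gene) in the 12 libraries, where points are libraries, the long dash is the mean of 3 and the bars are its SD. The control and LPS+ATP points lie apart for the Bcl2a1 genes, Bcl2 and Bcl2l11 in both genotypes, whereas those of Bcl2l1 are scattered within every group.

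Bcl2a1a (ENSMUSG00000102037, chromosome 9) had the largest fold change of the 10 genes in wild-type BMDMs, and Bcl2a1d had it in Nlrp3-/- BMDMs. Bcl2a1a was 3.04, 3.20 and 2.56 FPKM in wild-type control and 91.4, 102 and 95.6 FPKM in wild-type LPS+ATP libraries. Nlrp3-/- BMDMs had 10.5, 9.19 and 10.5 FPKM in control and 80.1, 74.6 and 77.8 FPKM with LPS+ATP. Every stimulated library lay far above every control library in both genotypes. The mean was 32.9-fold higher with LPS+ATP in wild-type (log2 fold change 4.63, standard error 0.07, adjusted p = 2.469e-13 by limma) and 7.71-fold higher in Nlrp3-/- BMDMs (log2 fold change 2.83, adjusted p = 1.889e-11 by limma).

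Bcl2a1d (ENSMUSG00000099974, chromosome 9) was 7.41, 8.67 and 8.97 FPKM in wild-type control and 139, 145 and 139.6 FPKM in wild-type LPS+ATP libraries. The Nlrp3-/- libraries held 11.6, 11.0 and 10.6 FPKM in control and 91.7, 93.5 and 93.7 FPKM with LPS+ATP. The groups did not overlap. Its mean was 16.9-fold higher in wild-type (log2 fold change 3.93, standard error 0.06, adjusted p = 1.964e-13 by limma) and 8.41-fold higher in Nlrp3-/- BMDMs (log2 fold change 2.96, adjusted p = 2.46e-12 by limma). Gm10634, an antisense gene that overlaps it, was at most 0.415 FPKM in any library.

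Bcl2a1b (ENSMUSG00000089929, chromosome 9) started from the highest level of the copies and had the smallest fold change of them. It was 100.2, 106 and 107 FPKM in wild-type control and 254, 261 and 259.7 FPKM in wild-type LPS+ATP libraries. For Nlrp3-/- BMDMs the values were 87.6, 89.6 and 89.2 FPKM in control and 194, 187 and 191 FPKM with LPS+ATP. Its mean was 2.47-fold higher with LPS+ATP in wild-type (log2 fold change 1.30, adjusted p = 6.978e-12 by limma) and 2.15-fold higher in Nlrp3-/- BMDMs (log2 fold change 1.10, adjusted p = 3.914e-11 by limma). Gm29094, an annotated protein-coding gene that overlaps Bcl2a1b on the same strand, was between 1.19 and 2.75 FPKM in wild-type control, 10.2 and 13.4 in wild-type LPS+ATP, 1.31 and 2.01 in Nlrp3-/- control, and 7.26 and 9.63 in Nlrp3-/- LPS+ATP libraries. Its part in the value of Bcl2a1b was not tested.

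The transcripts of Bcl2a1a, Bcl2a1b and Bcl2a1d are 819, 817 and 863 bases long, so moving a counted read between them bears little on their sum. Leaving out reads that match several copies, or counting them in each copy, would change the sum, and the counting used is not given. Summed over the 3 copies, Bcl2a1 was 111, 118 and 119 FPKM in wild-type control and 485, 508 and 495 FPKM in wild-type LPS+ATP libraries. In Nlrp3-/- BMDMs the sum was 109.7, 109.7 and 110.3 FPKM in control and 366, 355 and 363 FPKM with LPS+ATP. The sum rose 4.29-fold in wild-type (log2 fold change 2.09, standard error 0.03, adjusted p = 1.944e-13 by limma) and 3.29-fold in Nlrp3-/- BMDMs (log2 fold change 1.71, adjusted p = 1.242e-12 by limma). Its make-up also differed between the states. Bcl2a1b gave 90.3% ± 0.320 of it in wild-type control and 80.8% ± 0.882 in Nlrp3-/- control, but 52.1% ± 0.620 and 52.8% ± 0.207 with LPS+ATP (SD, n = 3 each). Bcl2a1a went from 2.54% ± 0.337 to 19.4% ± 0.643 of the sum in wild-type and from 9.14% ± 0.664 to 21.4% ± 0.438 in Nlrp3-/- BMDMs (SD, n = 3 each), so the highest control share, 9.54%, lay below the lowest stimulated share, 18.9%. These shares are descriptions with no test and rest on the uncertain split of reads.

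Mcl1 (ENSMUSG00000038612, chromosome 3) was the highest of the 10 genes in every group and among the least variable. Its FPKM was at or above percentile 98.5 of tested genes in every library, and its mean within-group SD on the log2 scale, 0.0273, was at percentile 2.32, where the median tested gene had 0.0799. It was 272, 253 and 256 FPKM in wild-type control and 299, 301 and 301 FPKM in wild-type LPS+ATP libraries. In Nlrp3-/- BMDMs it was 205, 211 and 207 FPKM in control and 201, 207 and 201 FPKM with LPS+ATP. Mcl1 rose 1.15-fold in wild-type BMDMs (log2 fold change 0.21, 95% confidence interval 0.14 to 0.27, adjusted p = 6.518e-05 by limma), and the groups did not overlap. In Nlrp3-/- BMDMs the groups overlapped, and the log2 fold change was -0.03 (95% confidence interval -0.10 to 0.03, adjusted p = 0.361 by limma). That value depends on how libraries are scaled. Over all tested genes the median log2 fold change with LPS+ATP was -0.26 in wild-type and -0.24 in Nlrp3-/- BMDMs, and scaling by the median ratio, which brings those medians near 0, gave Mcl1 a log2 fold change of 0.52 in wild-type (adjusted p = 3.083e-08 by limma) and 0.27 in Nlrp3-/- BMDMs (adjusted p = 1.5e-05 by limma).

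Bcl2l1 (ENSMUSG00000007659, chromosome 2), which encodes BCL-XL, was 6.24, 17.3 and 6.40 FPKM in wild-type control and 4.01, 9.91 and 11.4 FPKM in wild-type LPS+ATP libraries. It was 5.07, 15.7 and 13.1 FPKM in Nlrp3-/- control and 6.86, 8.16 and 6.48 FPKM in Nlrp3-/- LPS+ATP libraries. Its libraries overlapped in every comparison, and its within-group SD lay at percentile 99.5 of tested genes. The log2 fold change with LPS+ATP was -0.18 in wild-type (95% confidence interval -1.20 to 0.85) and -0.47 in Nlrp3-/- BMDMs (95% confidence interval -1.49 to 0.55), so a log2 fold change of -1 lies within both intervals.

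Bcl2 (ENSMUSG00000057329, chromosome 1), the founding member, had the lowest mean of the 10 genes in every group, though its libraries overlapped those of Pmaip1 in wild-type control. It was 2.12, 1.85 and 1.91 FPKM in wild-type control and 0.937, 0.792 and 0.935 FPKM in wild-type LPS+ATP libraries. Nlrp3-/- BMDMs had 1.92, 2.03 and 1.53 FPKM in control and 0.919, 1.12 and 0.970 FPKM with LPS+ATP. Bcl2 fell with LPS+ATP to 0.452 of its control mean in wild-type (log2 fold change -0.65, adjusted p = 1.305e-05 by limma) and to 0.550 in Nlrp3-/- BMDMs (log2 fold change -0.49, adjusted p = 0.0001407 by limma), with no overlap between the states. At this low level the fold limit was not reached on the log2(FPKM + 1) scale, whereas with a pseudocount of 0.1 the log2 fold change in wild-type was -1.06.

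**Figure D2:**
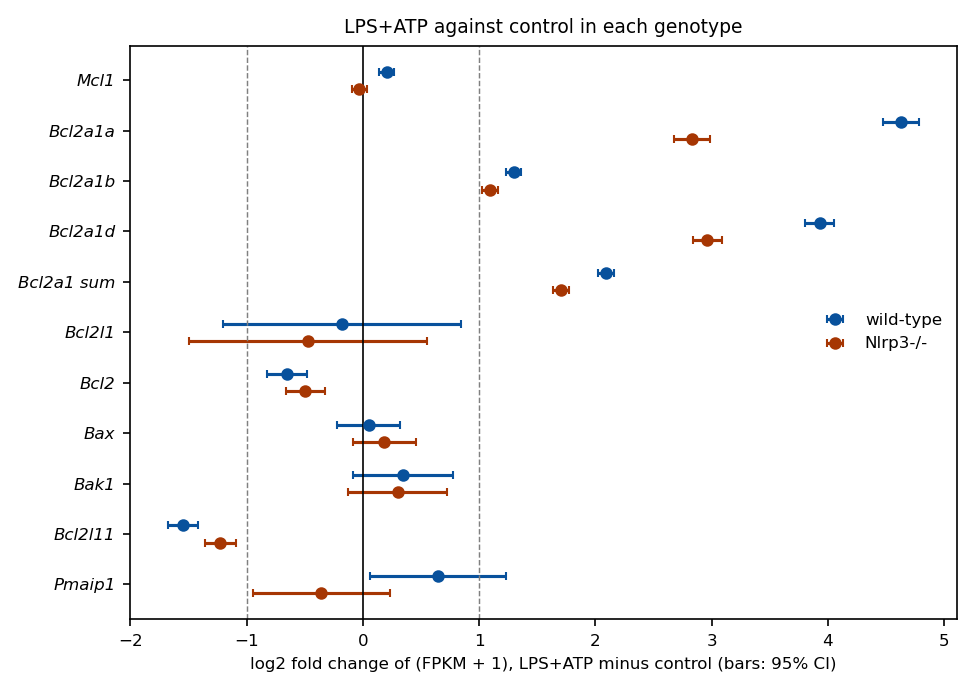
Log2 fold change of (FPKM + 1) with LPS+ATP against control for each of the 10 genes and the Bcl2a1 sum in both genotypes, with bars for the 95% confidence interval and dashed lines at the fold limit of 1. The Bcl2a1 genes lie right of 1 and Bcl2l11 left of -1 in both genotypes, and the intervals of Bcl2l1 are the widest.

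Neither effector passed the test in any of the comparisons when all libraries were fitted together on the FPKM as deposited. Bax (ENSMUSG00000003873, chromosome 7) was 41.0, 54.1 and 55.4 FPKM in wild-type control, 53.4, 58.4 and 43.8 FPKM in wild-type LPS+ATP, 54.4, 51.9 and 45.2 FPKM in Nlrp3-/- control, and 56.2, 56.5 and 59.5 FPKM in Nlrp3-/- LPS+ATP libraries. Its log2 fold change with LPS+ATP was 0.05 in wild-type (95% confidence interval -0.22 to 0.32, adjusted p = 0.729 by limma) and 0.19 in Nlrp3-/- BMDMs (95% confidence interval -0.09 to 0.46, adjusted p = 0.194 by limma). Bak1 (ENSMUSG00000057789, chromosome 17) was 26.0, 24.8 and 16.2 FPKM in wild-type control and 28.0, 28.9 and 27.1 FPKM in wild-type LPS+ATP libraries. It was 25.5, 31.1 and 28.8 FPKM in Nlrp3-/- control and 39.9, 25.6 and 42.3 FPKM in Nlrp3-/- LPS+ATP libraries. Its log2 fold change was 0.34 in wild-type (95% confidence interval -0.09 to 0.77) and 0.30 in Nlrp3-/- BMDMs (95% confidence interval -0.13 to 0.73). After median-ratio scaling both passed, Bax with 0.36 in wild-type and 0.48 in Nlrp3-/- BMDMs (adjusted p = 0.0241 and 0.006163 by limma) and Bak1 with 0.65 and 0.59 (adjusted p = 0.0107 and 0.0202 by limma), while Bak1 without Nlrp3-/- LPS+ATP replicate 2 gave 0.52 in Nlrp3-/- BMDMs (adjusted p = 0.0169 by limma) and 0.54 between the genotypes with LPS+ATP (adjusted p = 0.0235 by limma). With the 2 compared groups fitted alone Bax also passed in Nlrp3-/- BMDMs (0.19, adjusted p = 0.0461 by limma). Before that scaling the intervals of both effectors with LPS+ATP lay inside the fold limit of 1 in either direction.

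Of the BH3-only genes, Bcl2l11 fell in both genotypes. Bcl2l11 (ENSMUSG00000027381, chromosome 2) encodes BIM, a potent activator that binds all anti-apoptotic members. It was 10.1, 9.83 and 9.56 FPKM in wild-type control and 2.92, 2.54 and 2.65 FPKM in wild-type LPS+ATP libraries. The Nlrp3-/- libraries held 9.98, 9.43 and 8.46 FPKM in control and 3.38, 3.36 and 3.45 FPKM with LPS+ATP. The states did not overlap in either genotype. Bcl2l11 fell to 0.275 of its control mean in wild-type (log2 fold change -1.55, standard error 0.06, adjusted p = 6.044e-10 by limma) and to 0.366 in Nlrp3-/- BMDMs (log2 fold change -1.22, adjusted p = 6.564e-09 by limma). With upper-quartile and median-ratio scaling the value in Nlrp3-/- BMDMs was -0.97 and -0.96, just short of the fold limit.

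Pmaip1 (ENSMUSG00000024521, chromosome 18) encodes NOXA, a p53 target that binds MCL1 and A1. It was 2.63, 2.02 and 1.80 FPKM in wild-type control and 5.003, 2.24 and 5.09 FPKM in wild-type LPS+ATP libraries. For Nlrp3-/- BMDMs the values were 4.46, 4.93 and 4.66 FPKM in control and 4.81, 3.98 and 2.01 FPKM with LPS+ATP. The states overlapped in both genotypes, since replicate 2 of wild-type LPS+ATP lay within the range of wild-type control and replicate 1 of Nlrp3-/- LPS+ATP within that of Nlrp3-/- control. The within-group SD of Pmaip1 lay at percentile 97.1 of tested genes. Pmaip1 passed the test in wild-type BMDMs (log2 fold change 0.65, standard error 0.27, adjusted p = 0.0445 by limma) and did not in Nlrp3-/- BMDMs, where the value was -0.36 (95% confidence interval -0.94 to 0.23, adjusted p = 0.243 by limma). The wild-type test no longer passed when any 1 of 8 of the 12 libraries was left out, the adjusted p by limma being highest, 0.153, without wild-type LPS+ATP replicate 3 (log2 fold change 0.49) and 0.12 without wild-type control replicate 3 (0.57).

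Mcl1 gave most of the anti-apoptotic RNA in control libraries and Bcl2a1 most of it with LPS+ATP. The summed FPKM of the 6 anti-apoptotic genes was 388 ± 4.24 in wild-type control and 806 ± 16.1 in wild-type LPS+ATP, and 331 ± 8.61 in Nlrp3-/- control and 573 ± 1.87 in Nlrp3-/- LPS+ATP (SD, n = 3 each). Mcl1 gave 67.1% ± 2.36 of that sum in wild-type control and 37.3% ± 0.596 with LPS+ATP, and 62.8% ± 0.793 and 35.5% ± 0.653 in Nlrp3-/- BMDMs (SD, n = 3 each). Bcl2a1 gave 29.8% ± 1.40 and 61.6% ± 0.375 in wild-type, and 33.3% ± 0.857 and 63.1% ± 0.818 in Nlrp3-/- BMDMs (SD, n = 3 each). The ratio of Bcl2a1 to Mcl1 was at most 0.535 in all 6 control libraries and at least 1.62 in all 6 stimulated libraries. Bcl2l1 and Bcl2 together added little, the highest share being 4.64% for Bcl2l1 and 0.599% for Bcl2.

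**Figure D3:**
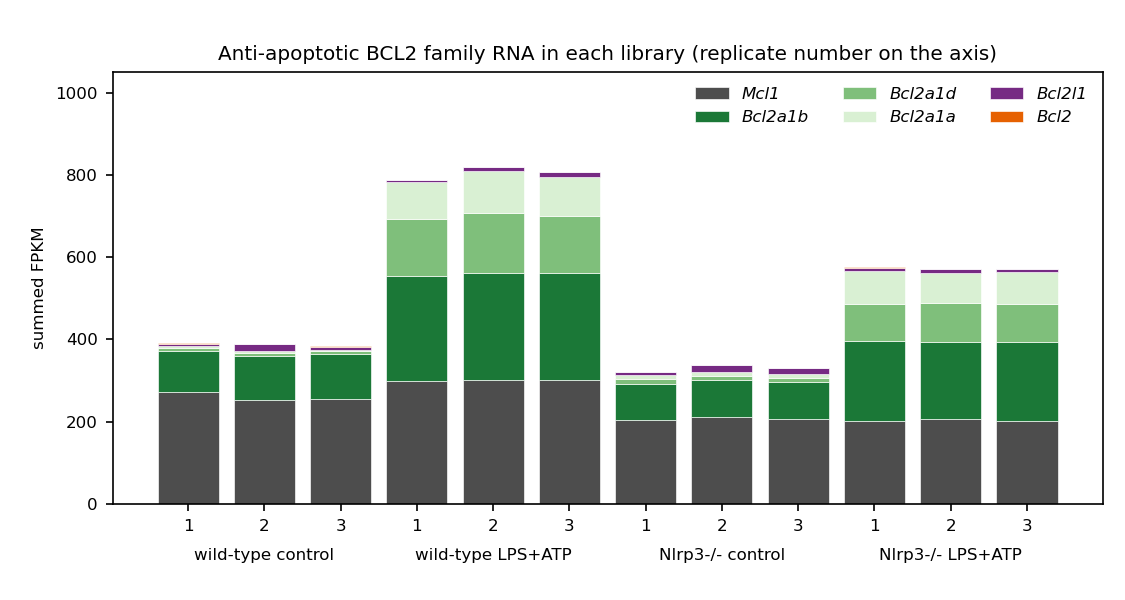
Stacked FPKM of the 6 anti-apoptotic genes in each of the 12 libraries, with the replicate number on the axis and a color for each gene. The stimulated bars are the tallest, and most of the added height is that of the 3 Bcl2a1 genes.

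Set against the pro-apoptotic genes, the anti-apoptotic sum was 5.38 ± 0.449 times the sum of Bax and Bak1 in wild-type control and 10.2 ± 1.08 times in wild-type LPS+ATP, and 4.20 ± 0.246 and 6.18 ± 0.694 times in Nlrp3-/- BMDMs (SD, n = 3 each). Against the sum of Bcl2l11 and Pmaip1 it was 32.5 ± 1.51 times in wild-type control and 125 ± 40.4 times with LPS+ATP, and 23.7 ± 1.51 and 84.3 ± 18.1 times in Nlrp3-/- BMDMs (SD, n = 3 each). In each genotype the lowest stimulated library lay above the highest control library for both ratios. The spread of the second ratio in stimulated libraries went with Pmaip1, the ratio being highest, 172, in the wild-type LPS+ATP library with the lowest Pmaip1 of its group. These ratios are RNA levels per length and carry no test. The second ratio leaves out other BH3-only genes and would be lower with them. In wild-type control and LPS+ATP the means were 13.5 and 15.0 FPKM for Bid, 8.13 and 4.42 for Bbc3, and 5.36 and 5.76 for Bad.

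Between the genotypes, the control comparison asked whether the family differs before stimulation. Bcl2a1a alone of the 10 genes was a DEG there, being 3.42-fold higher in Nlrp3-/- BMDMs (log2 fold change 1.49, standard error 0.07, adjusted p = 1.55e-08 by limma), where 6.71% of all tested genes were DEGs, 6.02% higher and 0.689% lower. Without the fold limit 5 genes passed, 3 higher and 2 lower, where 47.8% of all tested genes passed (33.3% higher, 14.5% lower), and for 5 genes the genotypes did not overlap, against 56.0% of all tested genes. Bcl2a1d was higher in Nlrp3-/- control BMDMs (log2 fold change 0.37, adjusted p = 0.00028 by limma) and Bcl2a1b lower (log2 fold change -0.23, adjusted p = 6.081e-05 by limma). Median-ratio scaling gave 0.19 for Bcl2a1d (adjusted p = 0.022 by limma) and -0.43 for Bcl2a1b (adjusted p = 6.321e-07 by limma). Their sum with Bcl2a1a had a log2 fold change of -0.07 (95% confidence interval -0.14 to -0.01, adjusted p = 0.0716 by limma), and after median-ratio scaling, chosen for the sum after seeing the data, it was -0.27 (adjusted p = 3.756e-05 by limma). The copies differed in opposite directions between the genotypes.

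Mcl1 was 0.797 of its wild-type level in Nlrp3-/- control BMDMs (log2 fold change -0.33, adjusted p = 3.393e-06 by limma), with all 3 Nlrp3-/- libraries below all 3 wild-type libraries, and its log2 fold change was -0.52 after median-ratio and -0.55 after upper-quartile scaling. Pmaip1 was 2.18-fold higher in Nlrp3-/- control BMDMs (log2 fold change 0.86, adjusted p = 0.0206 by limma), and its groups did not overlap. After median-ratio scaling its value was 0.69 and no longer passed (adjusted p = 0.0554 by limma), and without wild-type control replicate 2 or 3 or Nlrp3-/- control replicate 2 the adjusted p by limma was 0.0553, 0.0661 and 0.057. Bcl2, Bcl2l1, Bax, Bak1 and Bcl2l11 did not pass, with log2 fold changes between -0.08 for Bcl2l11 and 0.36 for Bak1. For Bcl2l11, median-ratio scaling gave -0.25 (adjusted p = 0.00396 by limma).

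With LPS+ATP, 0 of the 10 genes were DEGs between the genotypes by limma, where 5.05% of all tested genes were DEGs, 4.48% higher and 0.57% lower. At an unadjusted p under 0.05, 5 genes passed, and the same number passed at an adjusted p under 0.05, where 48.5% of all tested genes did (35.9% higher, 12.6% lower). Of the 5 genes, 4 were lower in Nlrp3-/- BMDMs, namely Mcl1 (log2 fold change -0.56, adjusted p = 5.072e-08 by limma), Bcl2a1d (-0.60, adjusted p = 6.571e-06), Bcl2a1b (-0.43, adjusted p = 3.769e-07) and Bcl2a1a (-0.31, adjusted p = 0.003577). For each of these 4 the genotypes did not overlap, and Mcl1 was 0.676 and the Bcl2a1 sum 0.729 of the wild-type mean (log2 fold change of the sum -0.46, adjusted p = 3.315e-07 by limma). Bcl2l11 was 1.26-fold higher in Nlrp3-/- BMDMs (log2 fold change 0.25, adjusted p = 0.004828 by limma), also with no overlap. Median-ratio scaling gave -0.53 for Bcl2a1a and -0.65 for Bcl2a1b. After median-ratio scaling the value of Bcl2l11 was 0.09 (adjusted p = 0.244 by limma), so that difference rests on the scaling. The genotypes did not overlap for 5 of the 10 genes, against 57.9% of all tested genes.

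**Figure D4:**
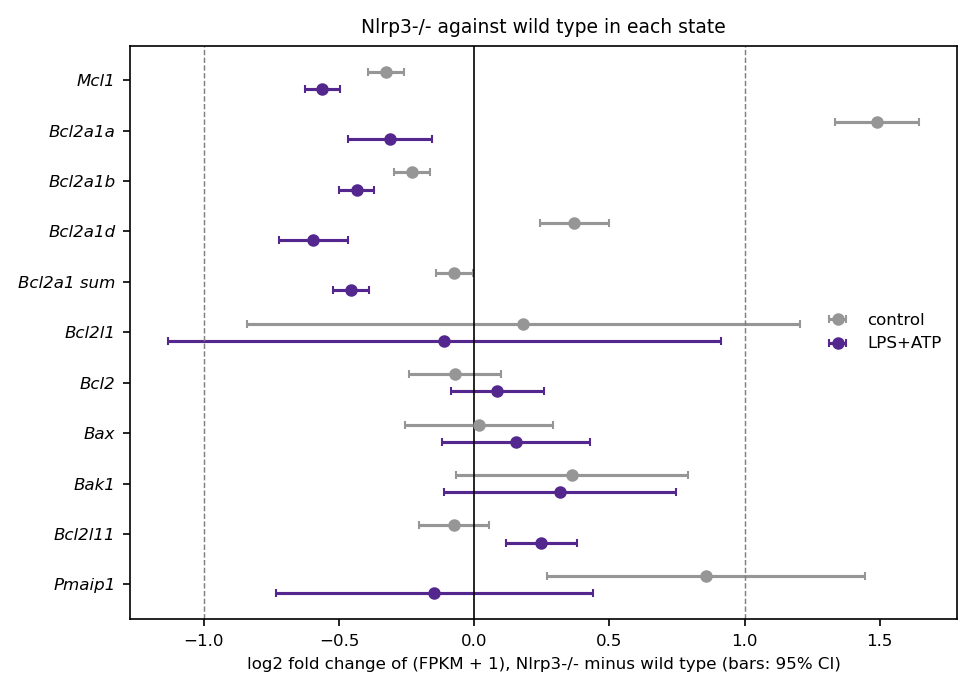
Log2 fold change of (FPKM + 1) in Nlrp3-/- against wild-type BMDMs for each of the 10 genes and the Bcl2a1 sum, in control and with LPS+ATP, with bars for the 95% confidence interval and dashed lines at the fold limit of 1. Bcl2a1a lies right of 1 in control and left of 0 with LPS+ATP, and Mcl1 lies left of 0 in both states.

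The genotype comparisons moved together with other differences between the libraries. Summed fibroblast markers, all 6 of which passed the filter, were 157 to 162 FPKM in wild-type control and 1165 to 1182 FPKM in Nlrp3-/- control libraries, and 181 to 183 and 891 to 907 FPKM with LPS+ATP. Summed markers of neutrophils and their precursors, of which 8 of 9 passed, were 343 to 380 FPKM in wild-type control, 1836 to 1884 FPKM in Nlrp3-/- control, 329 to 343 FPKM in wild-type LPS+ATP and 705 to 714 FPKM in Nlrp3-/- LPS+ATP libraries. The near-level wild-type sum combines a rise of Lcn2, from 9.73 to 10.3 FPKM in control up to 215 to 222 FPKM, with falls of other markers. As DEGs with LPS+ATP, 1 rose and 5 of the 8 fell in wild-type, and 1 rose and 6 fell in Nlrp3-/- BMDMs. Of all tested genes 8.25% rose and 11.2% fell in wild-type, and 6.64% and 8.21% in Nlrp3-/- BMDMs. The other marker lists were lower in level but also higher in Nlrp3-/- control, with summed means of 2.22 against 0.245 FPKM in wild-type control for T and NK cells, 4.64 against 1.38 for B cells, 10.6 against 2.09 for mast cells and basophils, 7.05 against 0.245 for erythroid cells and 0.508 against 0.236 for dendritic cells. Of these lists 1 of 4, 1 of 4, 3 of 3, 2 of 3 and 0 of 3 genes passed the filter. The T cell markers Cd3d, Cd3e and Cd3g and the dendritic cell marker Siglech were below 0.1 FPKM in every library, whereas Nkg7 was higher in Nlrp3-/- control by 1.43 on the log2 scale (adjusted p = 6.015e-06 by limma), and so was a DEG. Nkg7 reached an FPKM of 1 in Nlrp3-/- control libraries only. It thus passed the filter through the group in which it was higher, and its test is not independent of the filter. The part of other cells in the genotype values of the Bcl2a1 genes, which granulocytes also express, was not tested.

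The response to LPS+ATP itself was compared between the genotypes by an interaction term. By the DEG criteria 1 of the 10 genes differed, against 2.15% of all tested genes (0.721% positive, 1.43% negative), and this was Bcl2a1a, whose log2 fold change was smaller in Nlrp3-/- BMDMs by 1.80 (interaction -1.80, standard error 0.10, adjusted p = 4.95e-07 by limma). Without the fold limit 5 genes passed, 1 positive and 4 negative, against 27.7% of all tested genes (14.7% positive, 13.0% negative). The interaction was -0.97 for Bcl2a1d (adjusted p = 9.472e-06 by limma), -0.24 for Mcl1 (adjusted p = 0.001708 by limma), -0.20 for Bcl2a1b (adjusted p = 0.004257 by limma) and 0.32 for Bcl2l11 (adjusted p = 0.01453 by limma). For the Bcl2a1 sum it was -0.38 (adjusted p = 7.52e-05 by limma). In Bcl2a1a, the sizes of both the higher control level and the lower stimulated level of Nlrp3-/- BMDMs enter this term. Pmaip1, with an interaction of -1.01 (adjusted p = 0.0715 by limma), did not pass, whereas without wild-type LPS+ATP replicate 2 it was -1.31 (adjusted p = 0.0112 by limma) and without Nlrp3-/- LPS+ATP replicate 1 it was -1.20 (adjusted p = 0.042 by limma).

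Other genes of the pathway were taken from 3 lists. Of 16 further BCL2 family genes 10 passed the filter, and Bcl2l10, Bcl2a1c, Bik, Hrk, Bcl2l14 and Bcl2l15 did not. Bmf, a BH3-only gene, fell in both genotypes as Bcl2l11 did, from 2.88 to 0.403 FPKM in wild-type (log2 fold change -1.47, adjusted p = 7.433e-09 by limma) and from 3.23 to 0.437 FPKM in Nlrp3-/- BMDMs (log2 fold change -1.56, adjusted p = 5.996e-09 by limma). Bnip3, which acts in mitochondrial turnover under low oxygen, rose from 15.3 to 63.9 FPKM in wild-type (log2 fold change 1.99, adjusted p = 9.926e-11 by limma) and from 30.7 to 57.0 FPKM in Nlrp3-/- BMDMs, where its log2 fold change of 0.87 was inside the fold limit and its interaction was -1.12. Its relative Bnip3l had a log2 fold change of -1.08 in Nlrp3-/- BMDMs, from 39.0 to 19.1 FPKM (adjusted p = 0.0157 by limma), and of -0.07 in wild-type. The interaction of Bnip3l, -1.01, did not pass (adjusted p = 0.1595 by limma). Bnip3l was scattered, with 23.9, 22.8 and 10.5 FPKM in Nlrp3-/- LPS+ATP and 40.5, 14.8 and 35.8 FPKM in wild-type control libraries. Bok, an effector-like gene, fell from 3.38 to 0.958 FPKM in Nlrp3-/- BMDMs (log2 fold change -1.16, adjusted p = 2.341e-07 by limma), and in control it was higher in Nlrp3-/- than in wild-type BMDMs (log2 fold change 1.46). Bok was below an FPKM of 1 in every wild-type library and passed the filter only through its values in Nlrp3-/- control. Both of these comparisons use that group, so they are not independent of the filter. Bok also fell in wild-type BMDMs, from 0.591 to 0.104 FPKM (log2 fold change -0.53, adjusted p = 0.0001485 by limma). That was 0.18 of its control mean, beside 0.28 in Nlrp3-/- BMDMs. Of the 10 tested genes, 1 rose and 1 fell as DEGs in wild-type (8.25% and 11.2% of all tested genes), and 0 rose and 3 fell in Nlrp3-/- BMDMs (6.64% and 8.21%). The median log2 fold change of the list was -0.05 and -0.42, beside -0.26 and -0.24 over all tested genes.

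Downstream of the mitochondrion, all 16 listed genes of apoptosome, caspase and inhibitor function were tested. With LPS+ATP 3 rose and 2 fell as DEGs in wild-type, where 8.25% and 11.2% of all tested genes did, and 2 rose and 2 fell in Nlrp3-/- BMDMs, where 6.64% and 8.21% did. Birc3, an inhibitor of apoptosis protein and NF-κB target, rose in both (log2 fold changes 1.39 and 1.22). Cycs, which encodes cytochrome c, rose in both with 1.45 and 0.97, the latter inside the fold limit. The initiator Casp9 (-1.01 and -1.09) and Birc5 (-1.96 and -1.10), which is expressed in dividing cells, fell in both. The median log2 fold change of the list was -0.10 in wild-type and -0.14 in Nlrp3-/- BMDMs.

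Of 15 listed regulators of the family, all tested, 6 rose and 0 fell as DEGs in wild-type BMDMs by limma, beside 8.25% higher and 11.2% lower of all tested genes, and 3 rose and 0 fell in Nlrp3-/- BMDMs, beside 6.64% and 8.21%. Without the fold limit 9 rose and 4 fell in wild-type, beside 23.3% and 53.1% of all tested genes, and 9 rose and 5 fell in Nlrp3-/- BMDMs, beside 20.6% and 53.8%. Nfkb2, a subunit of NF-κB, had log2 fold changes of 2.22 and 1.83 in wild-type and Nlrp3-/- BMDMs. The p53 targets Mdm2 (2.00 and 1.15) and Cdkn1a (1.86 and 1.32) rose in both. Trp53, which encodes p53, fell in both inside the fold limit (-0.65 and -0.35), as did the BH3-only gene Bbc3 (-0.75 and -0.68). Pmaip1, also a p53 target, had 0.65 and -0.36. Atf4 (1.61 and 0.85) and Ddit3 (1.35 and 0.63), both of the integrated stress response, and Marchf5, a mitochondrial ubiquitin ligase (1.03 and 1.00), rose in both and passed the fold limit in wild-type. The median log2 fold change of the regulators was 0.95 in wild-type and 0.63 in Nlrp3-/- BMDMs. Between the genotypes, 0 genes of the apoptosis and regulator lists were DEGs in either state by limma, while 9 of 16 and 8 of 15 passed without the fold limit in control, beside 47.8% of all tested genes, and 10 of 16 and 8 of 15 with LPS+ATP, beside 48.5%.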

How the data were processed

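The 12 libraries held RNA of BMDMs of both genotypes, untreated or given LPS+ATP. The authors deposited 1 table of FPKM per gene and library, and 0 columns of values were left unused. The submitters' processing notes name DESeq2 1.24.0 and the build GRCm39. The aligner, the counting of reads that match several genes and its strand setting are not given in the sources used here. FPKM holds no read counts, so the depth in reads is unknown. Steps between low values put the libraries' depth at 1.0 to 1.218 times the lowest, the FPKM of a library summed to 283278 to 299393, and 21122 to 22613 genes were above 0. Pearson's r over tested genes was 0.990 to 0.993 within groups and 0.815 to 0.964 across groups.

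The members, gene lists and tests were chosen with earlier results of these data known. Genes reaching FPKM 1 in 3 or more libraries were tested with limma 3.58.1 (R 4.3.3) on log2(FPKM + 1), with 4 group means and a trend in the variance, and the procedure was tested on simulated data. The 10 members were all named, and a gene of the 3 other lists was named where it was a DEG in a comparison or did not pass the filter. Genes alike were the 3 with the highest r to a member. Alternatives were no filter, a filter of FPKM 5, a pseudocount of 0.1, no fold limit, TPM, upper-quartile and median-ratio scaling, no trend, the compared groups alone, a replicate block, the copies summed, and leaving out each library. Those on the summed copies were chosen after seeing the data. Sequences came from RefSeq and GENCODE release M21. Python 3.11.15, numpy 2.4.6, pandas 2.3.3 and matplotlib 3.10.9 made tables and plots. Values of some listed genes are not reported here.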

Additional observations from a re-analysis of the deposited data

Results flagged for a closer look

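The response to LPS+ATP differed between the genotypes, by an interaction term with an adjusted p under 0.05 in limma, for Bcl2a1a (-1.80), Bcl2a1d (-0.97), Mcl1 (-0.24), Bcl2a1b (-0.20), Bcl2l11 (0.32) and the sum of the Bcl2a1 copies (-0.38), each given as the log2 fold change in Nlrp3-/- minus that in wild-type BMDMs. With each library left out in turn, the interaction stayed between -1.86 and -1.73 for Bcl2a1a, -1.01 and -0.89 for Bcl2a1d, -0.27 and -0.22 for Mcl1, and -0.22 and -0.17 for Bcl2a1b. The genotypes also differed in the sex of the donor mice, which cannot be told apart from genotype here.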

How the results depend on the processing

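Of 1130 values of single genes under an alternative, 1073 kept their direction and their side of the DEG limits. Many of these alternatives leave the log2 fold change itself unchanged by design, so their direction could not turn. Among them are no filter, no trend, the replicate block, the compared groups alone and leaving out a library of a group not compared. The tally therefore does not measure how stable the values are. The number of DEGs for stimulation in wild-type, stimulation in Nlrp3-/-, genotype in control, genotype with LPS+ATP and the interaction was 9641, 9383, 6035, 6124 and 3494 with no fold limit, and 3702, 2847, 1428, 1406 and 634 with a pseudocount of 0.1. With TPM the counts after the first were 2933, 1597, 1327 and 605, and a filter of FPKM 5 gave 515 for genotype in control. Of the 10 members, 7 (stimulation in wild-type) and 5 (each genotype comparison and the interaction) passed with no fold limit. A pseudocount of 0.1 gave 2 for genotype in control and 2 for the interaction, TPM gave 2 for genotype in control, and upper-quartile scaling gave 2 for the interaction, the second gene being Bcl2a1d or Pmaip1. With each library left out in turn the interaction count was 1 to 2, being 2 without wild-type control replicate 3 (Bcl2a1d added) and without wild-type LPS+ATP replicate 2 or Nlrp3-/- LPS+ATP replicate 1 (Pmaip1 added).

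Upper-quartile and median-ratio scaling turned the sign for Mcl1 with stimulation in Nlrp3-/- (0.26 and 0.27, and 0.0318 with TPM), Bcl2l1 with stimulation in wild-type (0.10 and 0.10), Bcl2 with genotype under LPS+ATP (-0.0345 and -0.0211), Bax with genotype in control (-0.20 and -0.18) and under LPS+ATP (-0.0867 and -0.0607), and, for the first scaling, Bcl2l1 with genotype in control (-0.0215). Median-ratio scaling moved the median of all tested genes by 0.24 for stimulation in either genotype and by -0.16 and -0.17 for genotype in control and with LPS+ATP. The DEGs for stimulation in wild-type went from 1041 higher and 1411 lower to 1399 and 893, and in Nlrp3-/- BMDMs from 838 and 1036 to 1097 and 600. For genotype they went from 760 and 87 to 574 and 147 in control, and from 565 and 72 to 431 and 126 with LPS+ATP.

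Leaving out single libraries turned the sign of values that did not pass. These ran from -0.12 to 0.0071 for Bcl2 with genotype in control, -0.43 to 0.26, -0.10 to 0.63 and -0.52 to 0.14 for Bcl2l1 with stimulation in wild-type, genotype in control and genotype with LPS+ATP, -0.086 to 0.16 and -0.12 to 0.0935 for Bax with stimulation in wild-type and genotype in control, -0.17 to 0.18 for the Bak1 interaction and -0.45 to 0.13 for Pmaip1 with genotype under LPS+ATP. The cause of these changes was not tested. Replicate numbers did not pair the samples (correlations of same-numbered deviations from -0.057 to 0.053, own number highest in 12 of 36 cases), and with the replicate block the DEG counts were 2453, 1876, 847, 636 and 268 and the members past the criteria 4, 4, 1, 0 and 1. The unknown depth in reads limits what can be said of Bcl2, the gene with the lowest means.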

Other observations

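The genes whose FPKM ran most alike to a member over the 12 libraries were described by Pearson's r, in which all points share the 4 groups, so a high r mainly repeats the group pattern. For the Bcl2a1 sum these were Slfn4, Hmox1 and M6pr (r = 0.999 each). Hmox1, the heme oxygenase, went from 435 to 4851 FPKM in wild-type and from 414 to 3195 FPKM in Nlrp3-/- BMDMs. For Bcl2l11 they were Adssl1 (0.998), Anxa1 (0.997) and Man2a2 (0.996), and for Bcl2 they were AI839979 (0.984), Capn7 (0.983) and Ttc5 (0.981). For Mcl1 they were Nlrp3 (0.990), Ticam2 (0.983) and Srp54a (0.972), with Nlrp3 listed at 0 in every Nlrp3-/- library. For Pmaip1 the highest r was 0.844, with Gm15832.

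Among the members themselves, Bcl2l11 and Bcl2 had r = 0.978, and Bcl2l11 and Bcl2a1d had r = -0.995, over the same 12 libraries.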
